A study of Mus musculus with 50 samples.

Results

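The messenger RNAs of the nuclear genes for mitochondrial complex I and for the factors that assemble it were followed through the development of the mouse frontal cortex. Members were the protein-coding genes of the GENCODE vM21 annotation whose symbol starts with Nduf, together with Foxred1, Ecsit, Acad9, Tmem126b, Timmdc1 and Nubpl, provided that they reached 1 CPM or more in 5 or more libraries. All 52 candidates met this level and became members, out of 21897 protein-coding genes listed, of which 15012 reached the same level. Bulk RNA sequencing covered 50 libraries, from 5 wild-type mice and 5 mice heterozygous for a Setd1a loss-of-function allele (tm1d, written Setd1a+/-) at 5 ages, which were E14 and E18 in the embryo and P7, P35 and P70 after birth, each library being from a separate mouse. According to the methods, all mice were male offspring of heterozygous fathers and wild-type mothers on a mixed C57BL/6NTac and C57BL/6J background, and the embryonic ages were E14.5 and E18.5, whereas the sample labels name C57BL/6NTac, E14 and E18. The allele is constitutive, so every cell of a Setd1a+/- mouse carries it.

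Complex I takes electrons from NADH, passes them through a flavin and a chain of iron-sulfur clusters to ubiquinone, and pumps protons across the inner mitochondrial membrane. Its core subunits carry out this chemistry, those of the peripheral arm being encoded in the nucleus and those of the membrane arm by the mitochondrial genome, while accessory subunits surround and stabilise both arms. Assembly factors bind part-built intermediates and are not kept in the finished enzyme. The cortex depends on this enzyme for the respiration that pays for synaptic signalling, and inherited defects of its subunits and assembly factors cause Leigh syndrome and related encephalopathies.

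By role, the members comprised 7 core subunits, 9 accessory subunits of the peripheral arm, 19 accessory subunits of the membrane arm, Ndufab1 (the mitochondrial acyl carrier protein, present in both arms), 14 assembly factors, and 2 genes that carry the Nduf name without belonging to complex I. The last are Ndufa4, a subunit of cytochrome c oxidase (complex IV), and its paralog Ndufa4l2, a gene induced by low oxygen. The lowest count of any member in any library was 73. Counts were summed over all exons of a gene, so that splice isoforms of 1 gene could not be separated. The annotation gives 17 members a single protein-coding transcript and 35 members several. Fragments over exons shared by several genes were counted for each of them without regard to strand, and 31 members shared no exon base with another gene. Ndufaf2 shared 65.6% of its exon bases with B230220B15Rik, Ndufb6 39% with Smim27 and Ndufa13 30% with Tssk6, so the counts of these members may include those of their neighbours.

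Total counts per library ranged from 35507165 to 43907318. Gene-level counts did not check the genotype labels, since Setd1a itself was 0.10 ± 0.03 (SE) higher on the log2 scale in Setd1a+/- mice (edgeR adjusted p = 0.00679) and 52.3% of its exon bases are shared with other genes. The paper cites earlier work in which the heterozygous knockout lowered Setd1a protein in cortex. Xist was counted 60159 times in replicate 5 of the E14 wild-type group and 55644 times in replicate 2 of the E18 wild-type group, against at most 27 times in any other library, although the methods describe all mice as male. Wild-type replicate 2 at P7 stood apart in its markers, with a summed oligodendrocyte level of 1280 CPM and a choroid plexus level of 608 CPM against wild-type medians of 160 and 1.64 CPM at that age, and its summed forebrain markers were at 175 CPM against 342 to 367 CPM in the other wild-type libraries. The forebrain markers Emx1 and Tbr1 were present in every group. Summed neuronal markers went from a wild-type median of 605 CPM at E14 to 6650 CPM at P70 and summed progenitor markers from 1240 to 75.8 CPM. The glial sums went from 160 to 2980 CPM for astrocytes, from 49.6 to 3830 CPM for oligodendrocytes and from 43.1 to 228 CPM for microglia, and their part in the courses of the members was not tested. In such bulk tissue a change in the number of cells of a type and a change in RNA per cell cannot be told apart.

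Median levels per kilobase of exon (RPKM) were higher for each class of subunits than for the assembly factors, while single genes overlapped. In wild-type cortex the median level of the core subunits was 27.6 RPKM at E14 and 42.5 RPKM at P70, that of the peripheral accessory subunits went from 27.6 to 40.4 RPKM, and that of the membrane accessory subunits from 36 to 63.8 RPKM. The assembly factors lay lower, with medians of 7.43 RPKM at E14 and 9.26 RPKM at P70. When the median length of the protein-coding transcripts replaced the union of exons, the P70 medians were 107 RPKM for the core, 80.2 and 100 RPKM for the peripheral and membrane accessory subunits and 19.5 RPKM for the assembly factors, so the assembly factors had the lowest median with either length. The order within a class depended on the length used. At P70 Ndufs1 was the lowest core subunit over the union of exons, at 16.2 RPKM, and the highest with coding transcript lengths. Among assembly factors Nubpl, which helps deliver iron-sulfur clusters to complex I, lay lowest with either length (0.887 RPKM over the union of exons). Ndufaf8, the partner of the arginine hydroxylase Ndufaf5, was highest over the union of exons at 17.2 RPKM, and Ndufaf3 with coding transcript lengths at 29.1 RPKM.

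The developmental course was examined in wild-type mice by testing each pair of neighbouring ages. A member is said to rise or fall where edgeR's quasi-likelihood test gave a Benjamini-Hochberg adjusted p under 0.05 over all 16330 tested protein-coding genes. From E14 to E18, 25 members rose and 5 fell, where 31.8% of all tested genes rose and 34.1% fell, and without wild-type replicate 3 at E14 the number that rose was 15. From E18 to P7, 31 rose and 3 fell, against 33.9% and 33.4% of all genes. From P7 to P35, 34 rose and 3 fell, against 32.6% and 34.3%, and scaling by library size alone gave 25 and 8. The median log2 change of the members was 0.13, 0.16 and 0.24 at these 3 steps, whereas the median over all tested genes lay between -0.01 and 0.00. Leaving out each library gave medians of 0.0715 to 0.158 from E14 to E18. Scaling by library size alone gave 0.106 from E18 to P7 and 0.153 from P7 to P35. From P35 to P70 no member passed the test, where 0.533% of all genes rose and 0.527% fell. An unadjusted edgeR p under 0.05 was found for 8 members, against 1849 of the 16330 tested genes. Limma-voom and DESeq2 each called 1 member at this step, Ndufs7.

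Over the whole interval from E14 to P70, 43 of 52 members rose and 3 fell, with a median log2 change of 0.63, where 42.8% of all tested genes rose and 42.9% fell. All 7 core subunits rose, as did 8 of 9 peripheral accessory subunits, 18 of 19 membrane accessory subunits, Ndufab1 and Ndufa4, but only 8 of 14 assembly factors did, and the 3 that fell were all assembly factors. The wild-type mean was highest at P70 for 37 members and lowest at E14 for 36, and the same shares over all tested genes were not computed. The sum of all subunits per library was 1220, 1060, 968, 1210 and 1230 RPKM at E14 and 1810, 1820, 1760, 1960 and 1820 RPKM at P70. In this sum every P70 library lay above every E14 library. The summed assembly factors were at most 117 RPKM in a library at E14, which every P70 library exceeded, the highest at 136 RPKM.

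**Figure D1:**
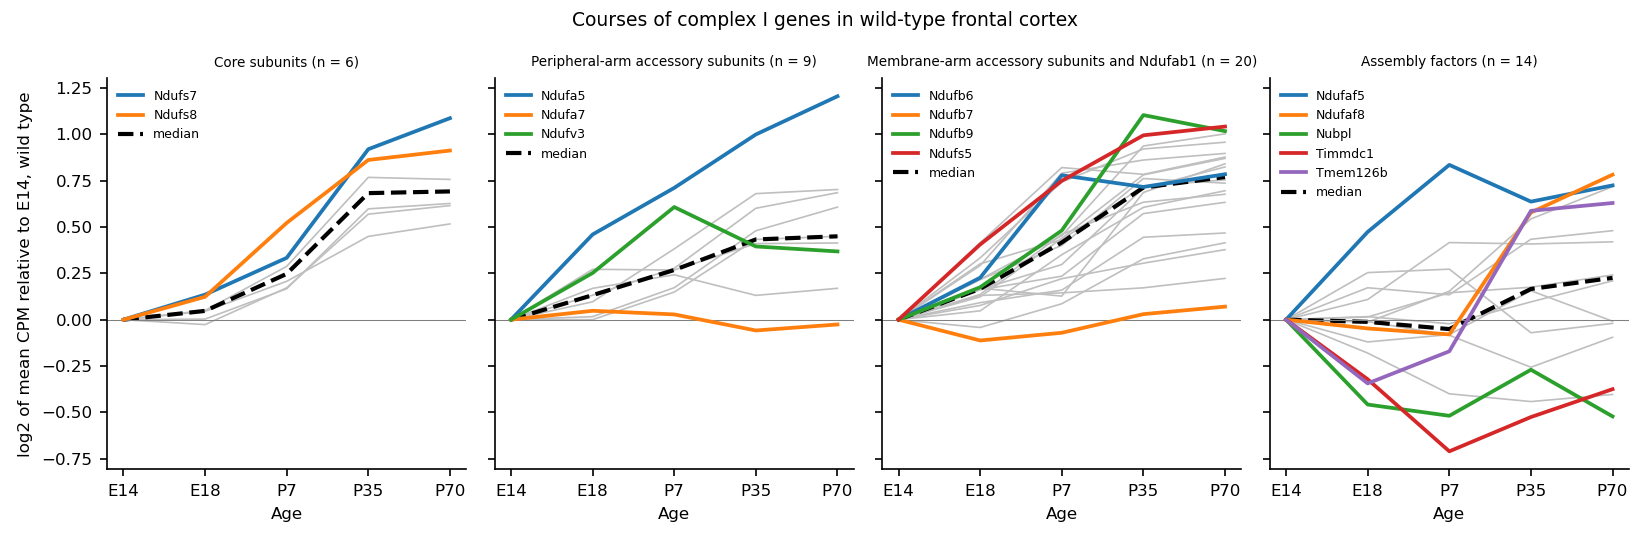
Wild-type mean CPM of each member relative to E14, on a log2 scale, against age, in panels by role (core, peripheral accessory, membrane accessory with Ndufab1, and assembly factors), each line being 1 gene over 5 mice per age and the dashed line the panel's median. Core lines change little to E18, climb to P35 and level off, while the assembly factors spread on both sides of 0. At P70, 6 of 14 assembly factors lie below 0, with Nubpl, Acad9 and Timmdc1 furthest below.

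The core subunits changed little before birth and all rose after it. From E14 to E18, 3 of 7 passed the test, of which Ndufs7 and Ndufs8 rose and 1 fell, where 31.8% of all tested genes rose and 34.1% fell. All 7 rose from E18 to P7 and again from P7 to P35, against 33.9% and 32.6% of all tested genes. Ndufs7, which carries the last iron-sulfur cluster before ubiquinone, showed the steepest course of the core. Its levels were 45, 42, 39.3, 47 and 45.8 CPM at E14, 54.7, 55, 57.2, 54.2 and 54.9 CPM at P7, 85.3, 83.4, 83.3, 83.6 and 79.1 CPM at P35, and 93.3, 93.5, 90.7, 96.7 and 91.2 CPM at P70. None of these 4 groups of libraries overlapped. Ndufs7 rose 1.5-fold from P7 to P35 (log2 0.59 ± 0.05 SE, edgeR adjusted p = 2.15e-15) and 2.13-fold from E14 to P70, and its further difference of 0.17 from P35 to P70 had an adjusted p of 0.0543.

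Ndufs1, the core subunit with the most iron-sulfur clusters, was at 77.5, 72.9, 72.9, 81.7 and 82.3 CPM at E14 and between 126 and 138 CPM at P70, with no overlap, and rose by 0.76 ± 0.04 on the log2 scale (edgeR adjusted p = 2.83e-21). Other core genes gained between E14 and P70 by log2 0.92 for Ndufs8, a carrier of iron-sulfur clusters, 0.63 for Ndufv1, which binds NADH and the flavin, 0.62 for Ndufs3 and 0.52 for Ndufv2.

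**Figure D2:**
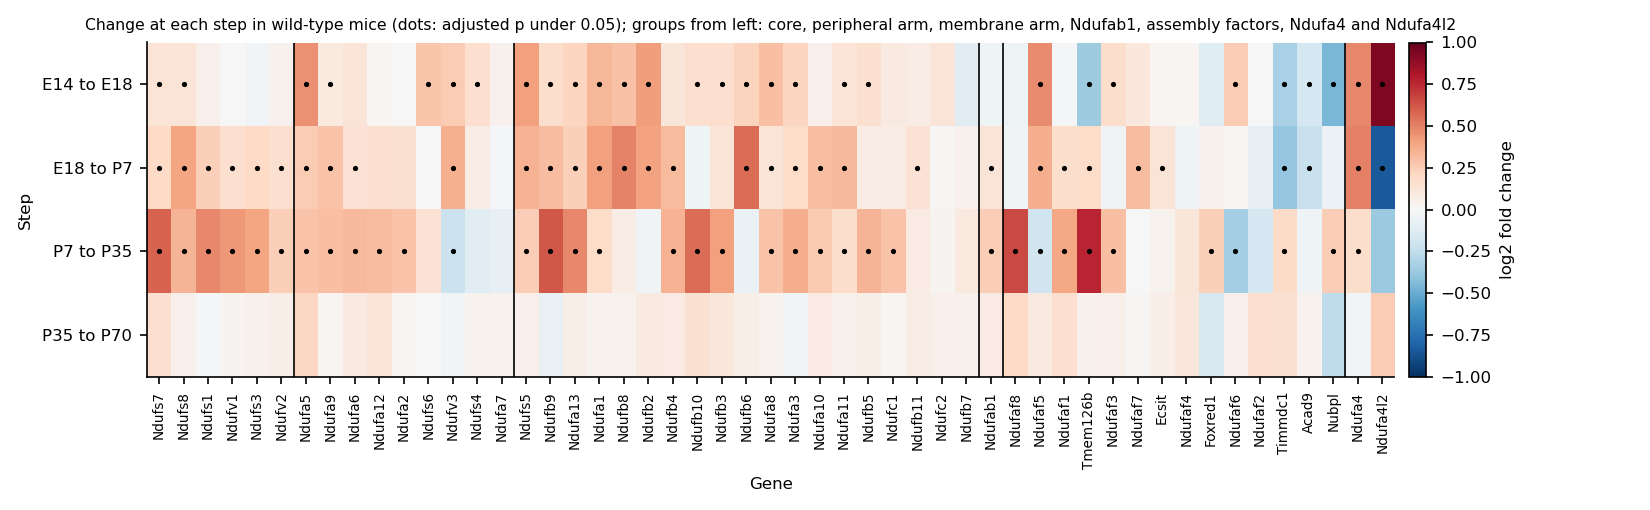
Heat map of the log2 change of 51 members (columns, grouped by role) at the 4 wild-type steps between neighbouring ages (rows), with 5 mice per age and a dot where edgeR's adjusted p was under 0.05. Dots fill the core columns at E18 to P7 and P7 to P35, and the P35 to P70 row holds none.

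Among the peripheral accessory subunits 5 of 9 rose from E14 to E18, 4 from E18 to P7 and 5 from P7 to P35, against 31.8%, 33.9% and 32.6% of all tested genes, so that the count from E18 to P7 in particular lies near that share. Ndufa5 had the largest gain of all members over the whole course. It was at 36, 26.9, 25.6, 33 and 32.9 CPM at E14 and at 68, 73.9, 66.4, 78.9 and 69.4 CPM at P70, and every P70 library lay above every E14 library. It rose 1.37-fold from E14 to E18 and 2.31-fold in all (log2 1.21 ± 0.07, edgeR adjusted p = 2.04e-20). Ndufv3, which sits on the NADH-oxidising module, was at 51.7, 48.6, 50.4, 49.9 and 50.9 CPM at P7 and 43.1, 45.2, 41.9, 45.3 and 41.3 CPM at P35. It was the only accessory subunit that fell at any step, by 0.21 ± 0.06 from P7 to P35 (edgeR adjusted p = 0.000916), after rising at both earlier steps. Ndufa7 passed the test at no step and differed by -0.03 ± 0.07 between E14 and P70.

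Among the membrane accessory subunits 13 of 19 rose at each of the first 3 steps, not always the same genes, and none fell, where between 31.8% and 33.9% of all tested genes rose and between 33.4% and 34.3% fell. Ndufb6 led the step from E18 to P7. It was at 33.2, 36.7, 32.3, 38.9 and 34.2 CPM at E18 and 51.8, 45.6, 57.5, 54.4 and 48.2 CPM at P7, without overlap, a 1.47-fold rise (log2 0.56 ± 0.07, edgeR adjusted p = 1.2e-09) that is uncertain in its source because of the exons it shares with Smim27. Ndufb8 rose 1.41-fold at the same step, and Ndufa1 and Ndufb2 rose 1.33-fold and 1.32-fold. From P7 to P35 the largest gains in this arm were those of Ndufb9 and Ndufb10. Ndufb9 went from 79.2, 77.3, 79.7, 75.1 and 78.3 CPM to 121, 120, 114, 119 and 124 CPM, a 1.54-fold rise (log2 0.62 ± 0.06, edgeR adjusted p = 4.09e-12), and Ndufb10 rose 1.48-fold. Ndufs5 rose at each of the first 3 steps and 2.06-fold in all. Ndufb7 and Ndufc2 passed the test at none of the 3 steps.

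From E14 to E18, 3 of 14 assembly factors rose and 4 fell, where 31.8% and 34.1% of all tested genes did. From E18 to P7, 5 rose and 2 fell, against 33.9% and 33.4%, and from P7 to P35, 7 rose and 2 fell, against 32.6% and 34.3%, so that with so few genes several of these counts lie near the shares over all genes. Timmdc1, a membrane protein that joins an intermediate of the membrane arm, was at 26.6, 24.7, 26.8, 29.7 and 29.9 CPM at E14 and at 16.1, 16.7, 16.3, 16.7 and 18 CPM at P7. Every P7 library lay below every E14 library. It fell by 0.33 ± 0.06 from E14 to E18 and by 0.39 ± 0.06 from E18 to P7, and then rose by 0.19 ± 0.06 from P7 to P35 (edgeR adjusted p = 2.18e-05, 9.99e-07 and 0.00913). Acad9, an acyl-CoA dehydrogenase that also acts in assembly, was at 52.3, 56.1, 57.6, 56.6 and 53.8 CPM at E14 and at 40.3, 44.1, 42.4, 39.5 and 43.4 CPM at P7. The 2 ranges were apart, and Acad9 was the only member that fell at 1 or more of the first 3 steps and rose at none (34.2% of all tested genes did), with a total change of -0.40 ± 0.04 from E14 to P70 (edgeR adjusted p = 2.72e-11). Nubpl was at 6.08, 6.26, 5.94, 6.39 and 6.93 CPM at E14 and 4.66, 4.27, 4.13, 4.54 and 4.39 CPM at P70, again without overlap, and fell by 0.52 ± 0.11 (edgeR adjusted p = 3.68e-05).

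Tmem126b, a membrane protein of the same intermediate as Acad9, turned round after birth. It fell by 0.35 ± 0.08 from E14 to E18 and had the largest rise of all members from P7 to P35. Its wild-type levels were 14.5, 20.6, 14.8, 16 and 13.5 CPM at P7 and 28.9, 26.5, 26.2, 26 and 27 CPM at P35. The value of 20.6 CPM belongs to replicate 2, the P7 library with oligodendrocyte and choroid plexus markers. The rise was 1.69-fold (log2 0.76 ± 0.08, edgeR adjusted p = 1.25e-11) with that library and 0.87 ± 0.07 without it. Ndufaf8 was at 7.6, 8.36, 7.36, 9.22 and 7.07 CPM at P7 and 11.9, 14.6, 12.8, 11.5 and 11.7 CPM at P35, without overlap, and rose 1.58-fold (edgeR adjusted p = 3.5e-08). Its partner Ndufaf5 fell at the same step. Ndufaf5 was at 14.9, 14.6, 12.2, 17.1 and 13.4 CPM at E14 and at 25.8, 23.6, 27.5, 26.1 and 25.6 CPM at P7, after rises of 1.39-fold and 1.29-fold, and at 20, 23.4, 22.7, 21.8 and 23.9 CPM at P35, where the range overlaps that of P7 (log2 change -0.20 ± 0.07, edgeR adjusted p = 0.00973). Ndufaf6, an early factor of the membrane arm, fell by 0.34 ± 0.09 from P7 to P35 (edgeR adjusted p = 0.00107).

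Read member by member over the first 3 steps, 12 members rose at each (9.5% of all tested genes did), none fell at each (11.2%), and 5 passed the test at none (6.61%), which were Ndufa7, Ndufaf2, Ndufaf4, Ndufb7 and Ndufc2. The 12 steady risers were Ndufa1, Ndufa3, Ndufa4, Ndufa5, Ndufa8, Ndufa9, Ndufa11, Ndufa13, Ndufb9, Ndufs5, Ndufs7 and Ndufs8, without any assembly factor. A further 8 members both rose and fell (25.5% of all tested genes did), and 5 of these were assembly factors (Ndufaf5, Ndufaf6, Nubpl, Timmdc1 and Tmem126b). In all, 38 members rose at 1 or more steps and never fell, where 33.7% of all tested genes did. Setd1a+/- mice, which are separate animals, gave 22 rises and 4 falls from E14 to E18, 27 and 3 from E18 to P7, 36 and 3 from P7 to P35, and 42 and 4 from E14 to P70, where 32% and 32.5%, 32.7% and 35%, 34.5% and 33.3%, and 42.3% and 43% of all tested genes rose and fell. From P35 to P70 none was called in Setd1a+/- mice by edgeR, where 1.51% of all genes rose and 1.47% fell. An unadjusted edgeR p under 0.05 was found for 6 members, against 2639 of the 16330 tested genes. Of the wild-type rises in the same order and from E14 to P70, 21, 27, 33 and 42 were also called in Setd1a+/- mice. Ndufa4l2 was among the calls made in wild-type mice alone at both E14 to E18 and E18 to P7.

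Promoter sequence was examined because most members rose over the same ages. RefSeq windows of the GRCm38.p6 build, from 250 bases before to 50 bases after a start site, were found for 45 of 52 members (47 windows) and compared with all 32851 windows of the table, each motif being searched as exact letters on both strands. A match of 10 letters to the binding site of the zinc finger factor YY1, in capitals in the last 6 sequences printed here, was in 6 members (12.8% of their windows against 0.852% of all windows). A match of 10 letters to the site of the respiratory factor NRF1, in capitals in the first 3 sequences, was in 3 members (6.38% against 0.971%), and its last 8 letters GCATGCGC in 5 (10.6% against 2.71%). The ETS letters CCGGAAG were in 8 members (17% against 8.86%), the SP letters CCCGCCC in 20 members (44.7% against 25.6% of windows), and CCAAT in 18 members (38.3% against 37.4%). All windows take in genes that were not tested, whereas every member was tested. Of tested genes with a window, 244 held the YY1 match and 12238 did not, against 6 and 39 of the members. For the NRF1 match of 10 letters these numbers were 249 and 12233, against 3 and 42 of the members. These are matches of letters, not measured binding. The matches to the 2 rarest motifs are shown 5′ to 3′ on the strand of the gene, with the motif in capitals, because their shares differed most, as a ratio, between members and all windows. Positions count the first transcribed base as 1.
Ndufa11, chr17:56717677-56717736 (+), motif from -60: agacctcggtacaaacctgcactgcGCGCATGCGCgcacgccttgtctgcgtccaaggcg
Ndufaf4, chr4:24897945-24898004 (+), motif from -113: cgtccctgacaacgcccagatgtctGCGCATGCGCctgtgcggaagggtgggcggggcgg
Ndufaf5, chr2:140170652-140170681 (+), motif from 17: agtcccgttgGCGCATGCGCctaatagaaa
Ndufa9, chr6:126849096-126849125 (-), motif from 30: attgtgggagAAGATGGCGGccgccgtccg
Ndufaf8, chr11:120098934-120098963 (+), motif from 11: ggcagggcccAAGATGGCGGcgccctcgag
Ndufs4, chr13:114388045-114388069 (-), motif from 36: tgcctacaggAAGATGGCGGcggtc
Ndufs6, chr13:73328433-73328459 (-), motif from 34: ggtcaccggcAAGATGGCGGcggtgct
Ndufs7, chr10:80249463-80249492 (+), motif from 25: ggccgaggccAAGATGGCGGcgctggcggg
Tmem126b, chr7:90475959-90475988 (-), motif from 18: gtgaggcgctAAGATGGCGGcgtcccagcg

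In all 6 members with the YY1 letters the match lay on the gene's strand and from 11 to 36 bases into the transcribed sequence. Tmem126b, Ndufaf8 and Ndufs7 hold this motif and were also 3 of the 5 members with the largest rise from P7 to P35, an overlap that was noticed after the values were seen. The median log2 change from P7 to P35 was 0.44 over the 6 members with the motif and 0.24 over the 39 members with a window but without it, while 2 of the 6, Ndufs4 at -0.11 ± 0.07 and Ndufs6 at 0.14 ± 0.07, did not pass the test. At the earlier steps the members with the motif did not have the higher median, which was 0.115 against 0.126 from E14 to E18 and 0.125 against 0.161 from E18 to P7. Among all tested genes, the 244 with the motif had the lower median at these earlier steps, at -0.195 against -0.0249 from E14 to E18 and -0.117 against -0.00821 from E18 to P7 for the 12238 without it. From P7 to P35 the 2 medians over all tested genes were 0.00 and -0.02.

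Ndufa4 and Ndufa4l2 offered a pair of paralogs with different courses. Ndufa4 (chr6:11900292-11907497, GRCm38) was the more abundant of the pair at every age, at 73.1, 71.2, 57.3, 77.3 and 81.6 CPM at E14, 99.7, 106, 99, 101 and 96 CPM at E18 and 144, 137, 146, 141 and 141 CPM at P7. These 3 groups did not overlap, and it rose 2.18-fold from E14 to P70 (log2 1.12 ± 0.06, edgeR adjusted p = 1.07e-20). Ndufa4l2 (chr10:127514967-127517154) was at 3.82, 2.98, 3.1, 1.98 and 2.72 CPM at E14, 5.15, 4.2, 7.8, 6.64 and 4.04 CPM at E18 and 3.5, 3.73, 2.85, 3.13 and 2.38 CPM at P7. Its E18 libraries lay above those of both other ages, with a 1.91-fold rise from E14 to E18 (edgeR adjusted p = 0.000484) and a fall of 0.84 ± 0.23 to P7 (edgeR adjusted p = 0.00143). In Setd1a+/- mice the log2 changes of Ndufa4l2 at these steps were 0.0164 and -0.366, and neither passed the test. Vascular markers varied with Ndufa4l2. From E14 to E18, 4 of 5 pericyte and 2 of 3 endothelial markers rose in wild-type mice (median log2 changes of 0.672 and 1.23). From E18 to P7, 2 pericyte markers fell (median -0.341) and no endothelial marker was called (median -0.264). Over all tested genes 31.8% rose at the first of these steps and 33.4% fell at the second. At E18 the summed pericyte markers of the same wild-type libraries were 175, 137, 239, 222 and 139 CPM, highest in the 2 libraries in which Ndufa4l2 was highest. In Setd1a+/- replicate 2 at E14, Ndufa4l2 was at 8.42 CPM against 2.19 to 3.44 CPM in the other Setd1a+/- libraries of that age, beside pericyte markers of 338 CPM and endothelial markers of 346 CPM, against group medians of 105 and 71.2 CPM. The part of vessel content in the course of Ndufa4l2 was not tested.

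Ratios of RPKM were compared between neighbouring ages by a two-sided exact permutation test of 5 against 5 wild-type libraries, whose smallest possible p is 0.00794, with adjustment over 20 tests. The log2 ratio of Ndufa4l2 to Ndufa4 averaged -4.31 ± 0.45 and -3.88 ± 0.42 before birth (E14 and E18) and -5.19 ± 0.27 and -5.72 ± 0.24 after it (P7 and P35), each over 5 libraries with the SD. It fell by 1.31 from E18 to P7 (exact p = 0.00794, adjusted p = 0.0198) and by 0.54 from P7 to P35 (adjusted p = 0.0317 by the same exact test), whereas in Setd1a+/- mice the latter step was -0.256 and did not pass the exact test (adjusted p = 0.265). Ndufaf2, an assembly factor, is the paralog of Ndufa12, the subunit that takes its place in the finished enzyme. The log2 ratio of Ndufaf2 to Ndufa12 was -2.83 ± 0.16 at P7 and -3.31 ± 0.12 at P35 (SD, n = 5), a difference of -0.47 (exact p = 0.00794, adjusted p = 0.0198), with no overlap between the ages. Ndufa12 rose at that step (log2 0.30 ± 0.08, edgeR adjusted p = 0.00101) and Ndufaf2, most of whose exon bases are shared with another gene, differed by -0.17 ± 0.11 (edgeR adjusted p = 0.171).

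The sum of the assembly factors declined against the sum of the subunits. The log2 ratio was -3.52, -3.53, -3.54, -3.55 and -3.54 in wild-type libraries at E18, -3.71, -3.74, -3.71, -3.69 and -3.68 at P7 and -3.84, -3.79, -3.79, -3.85 and -3.84 at P35. The 3 ages did not overlap, with steps of -0.17 and -0.12 (each exact p = 0.00794, adjusted p = 0.0198). Peripheral accessory subunits also lost ground to those of the membrane arm, by 0.09 from E18 to P7 and 0.06 from P7 to P35 (each exact p = 0.00794, adjusted p = 0.0198). The 7 mitochondrially encoded subunits, from mt-Nd1 to mt-Nd6 with mt-Nd4l, form the core of the membrane arm. All 7 rose from E14 to P70, with a median log2 change of 2.04, where 42.8% of all tested genes rose. Their sum relative to the nuclear core subunits rose from a log2 ratio of 4.02 ± 0.16 at E14 to 4.23 ± 0.04, 4.84 ± 0.12, 5.15 ± 0.06 and 5.24 ± 0.13 at the later ages (SD, n = 5). The first 3 of these steps passed the exact test (adjusted p = 0.0317, 0.0198 and 0.0198) and the last did not (adjusted p = 0.28), while the first of them was 0.19 with an exact test adjusted p of 0.104 without the 2 libraries with Xist counts. Mitochondrial transcripts were measured after poly-A capture, which may not recover all of them equally.

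Coordination was described by subtracting from each library the mean of its age and genotype and asking whether members deviated together. Over the 50 libraries the median Pearson r of a member with the mean of the other members was 0.72, and 90% of the 1326 pairs of members had a positive r, with a median of 0.40. The median r with the member mean was -0.01 over 16265 other tested genes, 0.80 over 38 subunits of complexes II to V and 0.85 over 77 cytosolic ribosomal proteins. These are descriptions across libraries that share depth, dissection and RNA quality, without a test. The median r was 0.82 for peripheral accessory subunits, 0.77 for membrane accessory subunits, 0.60 for core subunits and 0.27 for assembly factors. Without the E14 libraries these medians were 0.433, 0.435, 0.481 and 0.146, so that the core subunits no longer lay below the accessory subunits. Over the 50 libraries the members with the highest r were Ndufa2 (0.90), Ndufa4 (0.90) and Ndufv2 (0.89), and those with the lowest were Ndufa4l2 (-0.51), Ndufaf6 (-0.03) and Nubpl (0.10). Without E14 the former were at 0.603, 0.678 and 0.547 and the latter at -0.203, -0.492 and -0.33. Outside the respiratory chain, the 5 tested genes most like the member mean were Rps25, Rps15, Rpl17, Rpl26 and Rpl21, each at an r of 0.92 over the 50 libraries.

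Most of this shared variation lay among the embryos of E14. Within that age the median pairwise r was 0.67 over 10 libraries, against 0.21, 0.05, 0.10 and 0.25 within the 4 later ages in order, and without E14 the median r with the other members was 0.39. Of the 52 members, 41, 10, 5, 48 and 44 lay above their group mean in the 5 wild-type libraries of E14 and 18, 2, 44, 9 and 47 in the 5 Setd1a+/- libraries. The mean deviation of the members reached -0.18 in wild-type replicate 3 and 0.13 in Setd1a+/- replicate 5 on the log2 scale. Libraries also differed in how far long genes deviated from short genes, and many members are short genes. This slope per doubling of exon length was 0.07 in wild-type replicate 3 at E14, where members were low, and -0.06 in wild-type replicate 5 at E14 and in wild-type replicate 4 at P70, where 44 and 49 members lay above their mean. In every E14 library the slope and the mean deviation of the members had opposite signs. Their sizes did not always go together. Setd1a+/- replicates 2 and 3 at E14 had 2 and 44 members above at slopes of 0.02 and -0.01. Of these, replicate 2 also held endothelial markers of 346 CPM, against a group median of 71.2 CPM. In wild-type replicate 5 at E18 the slope was 0.03 with 28 members above. With the slope regressed out of every gene, the median r with the other members was 0.50 and the pairwise median 0.22.

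**Figure D3:**
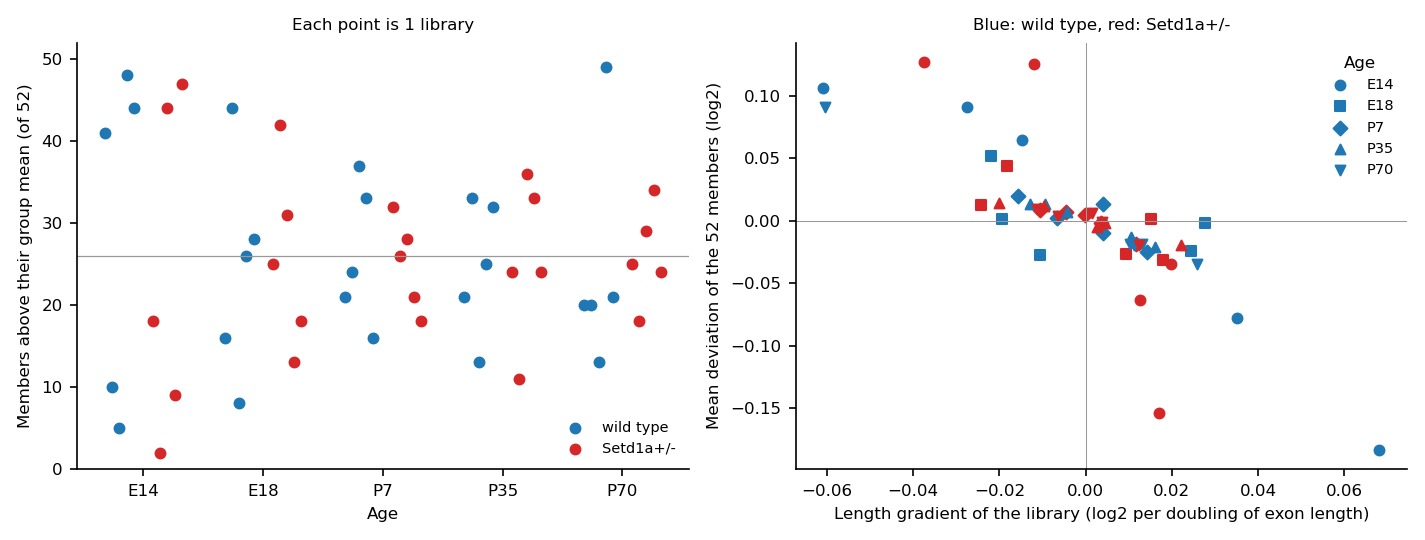
Left, for each of the 50 libraries, the number of the 52 members above the mean of their age and genotype, by age, wild-type and Setd1a+/- libraries being marked separately. Right, the mean log2 deviation of the members in each library against its length slope (log2 deviation per doubling of exon length), where the E14 libraries span the widest range of deviations, from -0.18 to 0.13.

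The effect of genotype was estimated over all 50 libraries with age as a covariate. It was directed downwards in the members, with 10 of 52 lower in Setd1a+/- mice and none higher, where 3.75% of all tested genes were lower and 0.68% were higher. Of the 52, 21 had an unadjusted edgeR p under 0.05, as did 2360 of the 16330 tested genes. Limma-voom and DESeq2 likewise called 10 lower and 0 higher. Among the 11993 genes at 10 CPM or more in 5 or more libraries, 4.29% were lower. With P7, P35 or P70 left out the members called lower numbered 5, 6 and 3, and Foxred1, Ndufc1 and Ndufa7 were among them each time. The estimate was below 0 for 37 members (49.1% of all tested genes), and below 0 at all 5 ages for 18 (8.33% of all genes), while Ndufa9, Ndufb7 and Ndufs1 lay above 0 at all 5 (5.17%). The effects were small beside those of age, with a median log2 difference of -0.03 over the members and 0.00 over all tested genes. The members called lower were 2 core subunits (among them Ndufv1), 3 peripheral accessory subunits (Ndufa6, Ndufa7 and Ndufv3), 2 membrane accessory subunits (Ndufa3 and Ndufc1) and 3 assembly factors (Foxred1, Ndufaf3 and Nubpl).

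**Figure D4:**
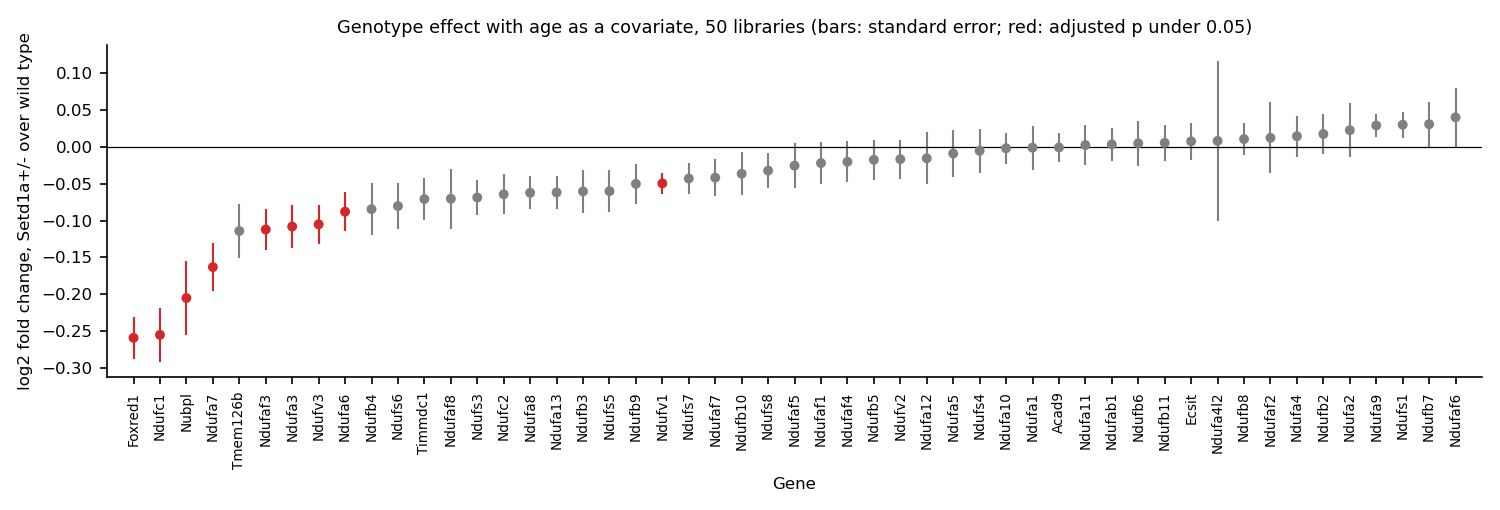
Log2 difference between Setd1a+/- and wild-type cortex (age as a covariate, 25 libraries per genotype) for each of 51 members, ordered from the lowest to the highest, with bars of 1 SE and called members in red. The red points all lie below 0, from -0.26 for Foxred1 and Ndufc1 to -0.05 for Ndufv1.

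Foxred1 (ENSMUSG00000039048, chr9:35204206-35211055, minus strand), an oxidoreductase-like factor of the later steps of assembly, differed most. At E14 it was at 36.1, 35.1, 35.1, 34.2 and 34.5 CPM in wild-type and 32.2, 25.4, 30.4, 30.7 and 32.7 CPM in Setd1a+/- mice. At P7 it was at 32.1, 36.4, 33.3, 33.1 and 30.8 CPM against 23.1, 29.1, 24, 26.7 and 26.8 CPM, and at P35 at 38.7, 38.8, 38.4, 38.8 and 40.4 CPM against 29.4, 30.6, 30.2, 33.4 and 33.5 CPM. At these 3 ages every Setd1a+/- library lay below every wild-type library, whereas at E18 and P70 the ranges met. The difference over all ages was -0.26 ± 0.03 (SE), or 0.836-fold (edgeR adjusted p = 1.78e-08). Foxred1 was also called at P7 alone (-0.35 ± 0.06, edgeR adjusted p = 0.00254) and at P70 alone (-0.29 ± 0.06, edgeR adjusted p = 0.0184), where leaving out any of 5 single libraries ended the call, and without wild-type replicate 2 its P7 difference was -0.32 (edgeR adjusted p = 0.0238).

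Ndufc1 (ENSMUSG00000037152, chr3:51404677-51408988, minus strand), a small accessory subunit of the membrane arm, was at 29.8, 31.3, 31, 31.9 and 29.2 CPM in wild-type and 27.6, 26.1, 24.7, 24.7 and 26 CPM in Setd1a+/- mice at P7. At P70 it was at 37.3, 35.6, 34.6, 43.9 and 38.2 CPM against 32.3, 31.8, 30.6, 32.1 and 27.9 CPM. The genotypes did not overlap at E18, P7 and P70. Its difference over all ages was -0.26 ± 0.04, or 0.838-fold (edgeR adjusted p = 3.18e-06), with estimates from -0.30 at E14 to -0.16 at P35. Ndufa7 (ENSMUSG00000041881, chr17:33824572-33838317, plus strand), a subunit that, like Ndufb7, passed the test neither at any step nor from E14 to P70 in wild-type mice, was at 47.8, 47.9, 46.7, 50.6 and 49.2 CPM in wild-type and 44, 44, 43.4, 42.6 and 44.7 CPM in Setd1a+/- mice at P35. The groups were apart at E18, P35 and P70, and the difference over all ages was -0.16 ± 0.03 (edgeR adjusted p = 0.000573).

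**Figure D5:**
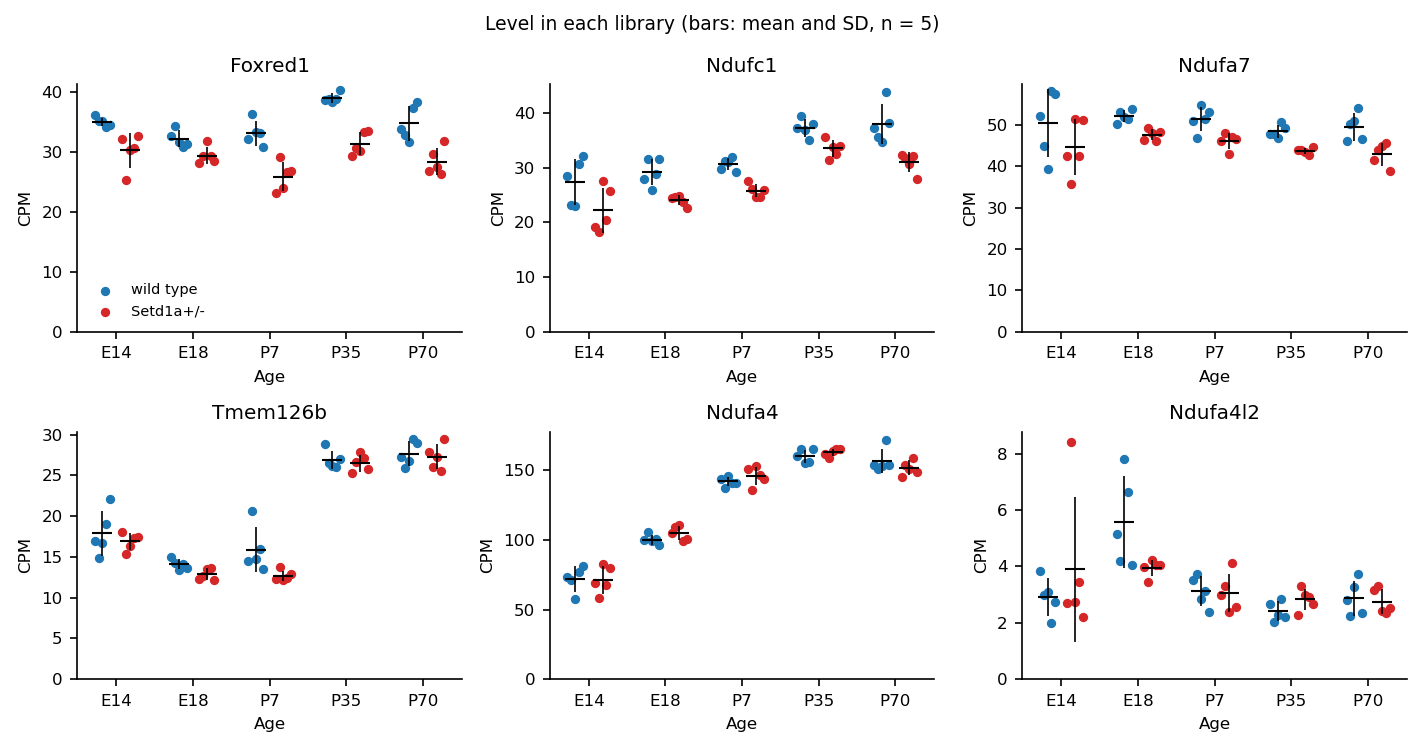
CPM of Foxred1, Ndufc1, Ndufa7, Tmem126b, Ndufa4 and Ndufa4l2 in each library by age, points being libraries, wild-type and Setd1a+/- side by side, with the mean and SD of 5 mice. Setd1a+/- points lie below wild-type points for Foxred1 at E14, P7 and P35 and for Ndufc1 at E18, P7 and P70, and the step of Tmem126b from P7 to P35 is seen in both genotypes.

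Further members were called over all ages. Nubpl was 0.867-fold (edgeR adjusted p = 0.00784), with the largest single-age estimates at P35 and P70 (-0.36 ± 0.11 and -0.31 ± 0.11), although the ranges met at each age. At P35 it was at 5.16, 4.7, 5.25, 5.5 and 5.57 CPM in wild-type and 4.72, 5.28, 3.09, 3.4 and 3.87 CPM in Setd1a+/- mice. Ndufaf3, a factor for the ubiquinone-binding module, differed by -0.11 ± 0.03, Ndufa3 by -0.11 ± 0.03, Ndufv3 by -0.10 ± 0.03, Ndufa6 by -0.09 ± 0.03 and Ndufv1 by -0.05 ± 0.01 (edgeR adjusted p from 0.00858 to 0.0415). Ndufv1 and Ndufa6 lost their calls without the 3 libraries that stand apart (the 2 with Xist counts and wild-type replicate 2 at P7), and those of Ndufa6 and Ndufv1 also ended when any of 35 and any of 11 single libraries was left out. At P70 Ndufaf3 was at 27.6, 29, 27.3, 31.2 and 28 CPM in wild-type and 26.4, 26, 23.9, 22.8 and 23.7 CPM in Setd1a+/- mice, without overlap. At P7 Ndufv3 was at 51.7, 48.6, 50.4, 49.9 and 50.9 CPM against 48, 46.6, 41.2, 43.8 and 43.4 CPM, again without overlap.

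Tmem126b was called at P7 alone. It was at 14.5, 20.6, 14.8, 16 and 13.5 CPM in wild-type and at 12.3, 13.8, 12.2, 12.4 and 12.9 CPM in Setd1a+/- mice, so that the ranges met at 13.5 and 13.8 CPM. The difference was -0.32 ± 0.08 (edgeR adjusted p = 0.0386) and was -0.21 ± 0.07 without wild-type replicate 2 (edgeR adjusted p = 0.542). Leaving out that library or any of 5 others ended the call. Over all ages Tmem126b differed by -0.11 ± 0.04 (edgeR adjusted p = 0.0704). The 2 calls at P7 and the single call at P70 compare with 0.723% and 0.22% of all tested genes called lower there. Beside the calls at P7, 3 of 5 oligodendrocyte markers and 1 of 3 choroid plexus markers were also called lower in Setd1a+/- mice (median log2 differences of -1.56 and -2.99 over the lists). The summed oligodendrocyte level was 1280 CPM in wild-type replicate 2, 122 to 174 CPM in the other wild-type libraries and 117 to 145 CPM in Setd1a+/- libraries. At E18 the median log2 difference of the choroid plexus markers was -6.42, with none called. Over all ages the oligodendrocyte and choroid plexus medians were -0.336 and -1.36, again with none called.

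At E14, E18 and P35 no member was called by edgeR, where 0.129%, 0.11% and 0% of all tested genes were. An unadjusted edgeR p under 0.05 was found for 6, 4 and 2 members, against 1895, 1857 and 550 of the 16330 tested genes. Limma-voom called none at these ages, and DESeq2 called 1 at P35, Foxred1, for which edgeR gave -0.31 ± 0.06 and an adjusted p of 0.0546. Groups without overlap, Setd1a+/- below wild-type, were found for 1 member at E14 (0.606% of all tested genes) and 3 members at E18 (0.955%). After birth they were found for 5 members at P7 (1.62%), for 2 members at P35 (1.32%) and for 5 at P70 (1.26%), and no member showed the reverse. These were Foxred1, Ndufc1, Ndufa7, Ndufs7, Ndufa13, Ndufa3, Ndufa6, Ndufaf3 and Ndufv3, of which Ndufs7 and Ndufa13 were not called over all ages (-0.04 ± 0.02 and -0.06 ± 0.02, edgeR adjusted p = 0.346 and 0.13). No member showed an age by genotype interaction by edgeR, limma-voom or DESeq2. Over all 16330 tested genes edgeR and limma-voom each called 0 and DESeq2 called 21. By edgeR 0 members had an unadjusted p under 0.05, against 1098 of all tested genes. Ndufab1, the member nearest to Setd1a at 5.69 Mb on chromosome 7, differed by 0.00 ± 0.02.

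Ratios within the complex differed by genotype in a single case among 5 tested. The mt-Nd genes relative to the nuclear core subunits were 0.12 higher on the log2 scale in Setd1a+/- mice (100000 permutations within age, p = 0.00026, adjusted p = 0.0013), with mean differences above 0 at all 5 ages, from 0.05 at P35 to 0.16 at P7. The other ratios gave adjusted p of 0.477 or more, although with coding transcript lengths the ratio of peripheral to membrane accessory subunits differed by -0.02 (adjusted p = 0.00965). Of the 7 mt-Nd genes 2 were called higher, where 0.68% of all tested genes were. These were mt-Nd5 (0.10 ± 0.03, edgeR adjusted p = 0.0217) and mt-Nd6 (0.11 ± 0.03, edgeR adjusted p = 0.0154). The 2 genes are encoded on opposite strands, and unstranded counts do not tell the strands apart.

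Other genes of the pathway, listed for this comparison, placed the members in context. Of 38 subunits of complexes II to V, 34 rose and only Atp5g2, an isoform of the ATP synthase c subunit, fell from E14 to P70, with a median log2 change of 0.52, where 42.8% of all tested genes rose and 42.9% fell. In Setd1a+/- mice 2 of the 38 were lower, Sdhc and Atp5g2 (each -0.11), and none higher, a count near the 3.75% of all tested genes that were lower. Of 5 further assembly proteins 4 were tested, of which Tmem70 rose and Tmem186, Dmac1 and Aifm1 fell from E14 to P70, and Tmem186 was lower in Setd1a+/- mice (-0.10 ± 0.03, edgeR adjusted p = 0.0102). Of 11 regulators of mitochondrial biogenesis 3 rose from E14 to P70, namely the coactivators Ppargc1a (2.06 ± 0.10) and Ppargc1b (3.76 ± 0.20) and the nuclear receptor Esrra (0.62 ± 0.05). A further 7 fell, among them Nrf1 (-1.74 ± 0.07) and Yy1 (-0.55 ± 0.04), while no regulator was called by genotype. Both counts of regulators come from few genes and are to be read against the same shares of all tested genes.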

How the data were processed

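RNA from frontal cortex of 50 mice was sequenced after poly-A capture in a single batch, per the methods. For embryos the methods describe the dissected tissue as frontal brain regions, and the part of this in the steps between ages was not tested. The authors deposited raw gene counts per library, made with featureCounts 1.4.6-p2 per the file headers, unstranded over exons of Ensembl release 102 (GRCm38), with a fragment over several genes counted for each. The submitters' processing notes also name FastQC, Trimmomatic and STAR, whose versions are not given in the sources used here. Each file lists 55487 genes, of which 55141 matched the annotation's names. Total counts were 35507165 to 43907318 per library (median 38626998).

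Counts of protein-coding genes passing filterByExpr (minimum count 10, 16330 genes) were scaled by TMM and tested with edgeR 4.0.16 (quasi-likelihood, Benjamini-Hochberg over all tested genes, threshold 0.05) in R 4.3.3, in a fit of the 10 age and genotype groups for steps and single ages, and with age as a covariate for genotype. CPM is relative to the tested protein-coding counts after TMM, and RPKM adds the length of the union of exons. Log2 CPM used a prior count of 2 and ratios 0.5. Ratios over genotype used 100000 permutations within age (10000 when leaving out 1 library). The length slope used 12446 genes with a mean log2 CPM of 2 or more. Python 3.11.15, numpy 2.4.6, matplotlib 3.10.9 and bedtools 2.31.1 were used, and the fits were tested on simulated data.

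Genes given with values were, for each step, up to 5 members with the largest called rise and fall, every member called by genotype, the 3 highest and lowest in coordination, the core subunits, the paralog pairs, members sharing over 50% of exon bases and members within 10 Mb of Setd1a. The members and lists were chosen with earlier results of these data known. Alternatives were limma 3.58.1 (voom), DESeq2 1.42.0, its size factors, library size alone, other filters on low counts, a threshold of 0.01, the replicate number as a block, RNA integrity as a covariate, leaving out each library, and Setd1a+/- mice for the steps. The length slope as a covariate, coding transcript lengths, leaving out ages and leaving out the 3 libraries that stand apart together were added after seeing the data. Some genes are not reported here by name.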

Additional observations from a re-analysis of the deposited data

Results flagged for a closer look

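Of 160 groups of 5 libraries examined over 16 quantities, 7 held a library whose gap to its nearest neighbour exceeded Dixon's 95% critical value of 0.71 of the group's range, and chance marks about 1 in 20 groups. Among members these were Foxred1 in Setd1a+/- replicate 2 at E14, at 4.67 log2 CPM against 4.93 to 5.03 in the others, and in wild-type replicate 5 at P35, at 5.34 against 5.27 to 5.28. Ndufv1 was at 6.58 in Setd1a+/- replicate 1 at E14 against 6.51 to 6.53, and at 7.24 in Setd1a+/- replicate 1 at P35 against 7.13 to 7.15. Among log2 ratios, Ndufa4l2 to Ndufa4 was -4.64 in Setd1a+/- replicate 2 at E18 against -4.38 to -4.28, assembly factors to subunits was -3.58 in Setd1a+/- replicate 3 at E18 against -3.53 to -3.51, and peripheral to membrane accessory subunits was -1.51 in wild-type replicate 2 at P35 against -1.54 in each of the others.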

How the results depend on the processing

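From E14 to P70, 40 to 44 members rose and 2 to 4 fell over all alternatives run. From E14 to E18 the number that rose was 15 at an adjusted p under 0.01 and 15 to 28 when each library was left out. The median change from E18 to P7 was 0.106 with library size only and 0.2 with a filter of 10 CPM, and that from P7 to P35 was 0.153 with library size only (8 members fell) and 0.283 both with the 10 CPM filter and in Setd1a+/- mice. Library size only moved the median of all tested genes by -0.106 from P7 to P35 and by -0.114 from E14 to P70. From P35 to P70, 1 member (Ndufs7) rose with limma-voom, DESeq2, a filter of 10 or 1 CPM, and without the 2 libraries with Xist counts or the 3 that stand apart. With the length slope as a covariate 2 rose (Ndufs7 and Ndufa5), in an additive fit over both genotypes 3 rose (Ndufaf1, Ndufaf4 and Ndufb10) and 1 fell (Foxred1), and leaving out each library gave 0 to 1. The cause was not tested for any of these.

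Members lower in Setd1a+/- mice with age as a covariate numbered 5 without P7, 6 without P35, 3 without P70 and 5 at an adjusted p under 0.01. At E14 the number was 1 without the 2 libraries with Xist counts or the 3 that stand apart (Foxred1) and 1 with the length slope (Ndufc1), and 0 to 1 when each library was left out. At E18 it was 1 with the length slope (Ndufc1). At P7 it was 1 (Foxred1) with limma-voom, 10 CPM, the replicate block, an adjusted p under 0.01 and without the 3 libraries, and 1 to 2 when each library was left out. At P35 it was 1 (Foxred1) with DESeq2, its size factors, the replicate block, the length slope and without the 2 or the 3 libraries, and 0 to 1 when each library was left out. At P70 it was 0 with library size only and at an adjusted p under 0.01, 2 with the length slope (Foxred1 and Ndufc1), and 0 to 1 when each library was left out.

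The median r with the other members was 0.391 without E14, 0.194 at P7 alone and 0.27 at P35 alone, where the pairwise medians were 0.046 and 0.0967. In Setd1a+/- mice the ratio of Ndufa4l2 to Ndufa4 from P7 to P35 changed by -0.256 and lost its call, that of Ndufaf2 to Ndufa12 from E18 to P7 by -0.148 and gained it, that of assembly factors to subunits from E14 to E18 by -0.112 and gained it, and that of mt-Nd to core genes from E14 to E18 by 0.193 and lost it, as it did at 0.194 without the 2 libraries with Xist counts. Leaving out each library gave -0.626 to -0.453, -0.19 to -0.114 and 0.163 to 0.26 for the ratios of Ndufa4l2 to Ndufa4, assembly factors to subunits and mt-Nd to core genes, and 0.0166 to 0.0288 for peripheral to membrane accessory subunits from P35 to P70. With coding transcript lengths the genotype difference of the peripheral to membrane ratio was -0.0206, reversed from 0.00893.

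Replicate numbers showed no steady pairing of libraries. Of 25 same-numbered pairs 9 had an r over 0.1 (from -0.204 to 0.46), and 7 of 25 libraries correlated best with their own number. The methods describe littermates at postnatal ages, but the labels name no litter. A comparison of replicate numbers cannot show which mice shared a litter, and the effect of litter was not tested. With the replicate block the count of calls was 1 at P7 and 1 at P35, Tmem126b at P7 (-0.309, edgeR adjusted p = 0.0592) and Ndufa6 over all ages (-0.0879, edgeR adjusted p = 0.0743) lost theirs, and no other member named as called lost its call. The lowest count of a member was 73, and the effect of depth or of 5 mice per group on the calls was not tested.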
